A study of Mus musculus with 16 samples.

Results

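Neutrophil granule genes were examined in cortical bone and skeletal muscle of aged mice through the levels of 10 members: Elane, Mpo, Prtn3, Camp, Ltf, Ngp, Lcn2, S100a8, S100a9 and Retnlg. The members were taken by symbol from the gene names of both expression tables, a rule that used no measured value, although the list was drawn up with results of these data known. All 10 were among the 38933 genes of the cortical bone table, and 1 of them, Lcn2, was among the 21011 genes of the skeletal muscle table. C57BL/6 females, aged 18 months at the start, had been given the aryl hydrocarbon receptor antagonist BAY2416964 (BAY) or its vehicle (VEH, a mix of ethanol, Solutol and water). The dose was 30 mg/kg by oral gavage, 5 days a week over 8 weeks, and mice of both groups had received 2 calcein injections before sacrifice. Each tissue gave 8 libraries, 4 from VEH-treated and 4 from BAY-treated mice, with 1 library per mouse. The bone samples were shafts left after bone marrow stromal cells had been harvested and then digested with collagenase, and the muscle sample was 1 tibialis anterior per mouse.

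Neutrophils are short-lived white blood cells that are made in the bone marrow and packed with antimicrobial proteins. Their granules are filled in order as the cell matures, so that primary granule genes are transcribed in promyelocytes, secondary granule genes in myelocytes and metamyelocytes, and the S100 genes and Retnlg later. Mature neutrophils leave the marrow for blood, and skeletal muscle at rest holds few of them, so transcripts of primary and secondary granule genes mark immature cells of the marrow. In bulk RNA, fewer cells of a type and less RNA per cell cannot be told apart.

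The members are placed here by their coordinates in mm39, as the tables give them. Prtn3 (ENSMUSG00000057729, chromosome 10, 79710310 to 79719008) and Elane (ENSMUSG00000020125, chromosome 10, 79722081 to 79724049) lie 3.07 kb apart on the same strand. S100a8 (ENSMUSG00000056054, chromosome 3, 90576285 to 90577342) and S100a9 (ENSMUSG00000056071, chromosome 3, 90599939 to 90603028) lie 22.6 kb apart on opposite strands. Camp (ENSMUSG00000038357, 109676447 to 109678685), Ngp (ENSMUSG00000032484, 110248815 to 110252080) and Ltf (ENSMUSG00000032496, 110848339 to 110871835) share chromosome 9. Mpo (ENSMUSG00000009350, 87684407 to 87695239) is on chromosome 11, Lcn2 (ENSMUSG00000026822, 32274645 to 32278264) on chromosome 2 and Retnlg (ENSMUSG00000022651, 48692984 to 48694859) on chromosome 16.

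Upstream sequence of 5 members is printed because the members moved together across the bone libraries, and because PU.1 and the C/EBP factors are the best known regulators of granule genes. The letters GAGGAAG, a common form of the PU.1 core, and TTNCNNAA, a loose form of the C/EBP site, were searched on both strands in the 250 bases before each RefSeq start (RefSeq promoter table for GRCm38.p6, placed by exact match on GRCm39, the same assembly as mm39). GAGGAAG or its reverse complement was in the windows of 5 of 10 members and in 10.6% of 32851 promoters. TTNCNNAA was in the windows of 6 of 10 members and in 36.8% of promoters. The 3 primary granule genes each held GAGGAAG and none held TTNCNNAA, while among the secondary granule genes Ltf and Ngp held only TTNCNNAA, Lcn2 held both and Camp neither. Capitals mark these letters, all sequences are the plus strand, and bases inside an annotated exon of the gene were left out. The stretches are Elane (chr10:79721896-79722080), Mpo (chr11:87684360-87684406), Prtn3 (chr10:79715251-79715447), Ltf (chr9:110848110-110848338) and Ngp (chr9:110248626-110248814).
Elane: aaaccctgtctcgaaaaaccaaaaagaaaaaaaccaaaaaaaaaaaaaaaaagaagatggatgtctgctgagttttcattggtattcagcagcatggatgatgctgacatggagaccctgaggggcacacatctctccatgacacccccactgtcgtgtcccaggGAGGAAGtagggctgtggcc
Mpo: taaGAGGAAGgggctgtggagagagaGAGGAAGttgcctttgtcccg
Prtn3: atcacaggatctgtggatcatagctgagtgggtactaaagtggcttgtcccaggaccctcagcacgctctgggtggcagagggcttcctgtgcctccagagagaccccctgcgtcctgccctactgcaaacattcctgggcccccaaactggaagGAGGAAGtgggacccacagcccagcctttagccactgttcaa
Ltf: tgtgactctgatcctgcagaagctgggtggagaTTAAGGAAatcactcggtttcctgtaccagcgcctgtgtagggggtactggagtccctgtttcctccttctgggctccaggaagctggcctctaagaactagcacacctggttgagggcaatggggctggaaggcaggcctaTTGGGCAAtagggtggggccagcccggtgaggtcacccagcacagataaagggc
Ngp: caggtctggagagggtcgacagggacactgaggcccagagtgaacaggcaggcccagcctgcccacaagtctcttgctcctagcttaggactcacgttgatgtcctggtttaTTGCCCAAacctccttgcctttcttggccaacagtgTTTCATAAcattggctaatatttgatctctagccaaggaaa
The Elane, Mpo, Ltf and Ngp stretches end at the base before the gene start of the tables. The RefSeq start of Prtn3 lies 5191 bases after the gene start in the tables, so its stretch is intronic in the longer gene model. That of Lcn2 lies 513 bases after its gene start in the tables. The searched window of Lcn2 was therefore inside the gene there, with 197 of its 250 bases in exons. One further TTNCNNAA match of Ngp lies closer to its RefSeq start, in exon sequence that was not printed. A match of letters was taken as a description of sequence and not as a bound site, and the sequences were not tested against the expression values.

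The bone libraries held 930306 to 6951915 reads counted on genes, and the muscle libraries 6131921 to 9262388. Levels are given as CPM, counts scaled to the same total in each library, after undoing the deposited log2. A value of 3 reads, taken as the lowest level that the depth can show, was 0.432 to 3.22 CPM in bone and 0.324 to 0.489 CPM in muscle, and such limits cover counting error only. Among the bone libraries VEH replicate 1 stood apart, with a mean root mean square log2 distance of 8.46 from the others against 4.88 to 5.26 for the rest. It was also the deepest bone library, and 33.9% of its genes were listed at 0 against 3.58% to 8.66% in the others. The distance includes these entries. The bone label was checked by 16 osteoblast and osteocyte genes (Col1a1, Bglap, Dmp1, Sost and others), which were all listed and summed to 1734 to 33185 CPM per library. Transcripts of 12 skeletal muscle fibre genes (Acta1, Ckm, Myh4 and others), which encode contractile and metabolic proteins of muscle fibers, summed to 50.2 to 42666 CPM in the same bone libraries. In the muscle libraries the fibre genes summed to 117287 to 194207 CPM.

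In cortical bone all 10 granule genes were detected, and their levels differed between mice by more than they differed between treatments. Their summed level in VEH replicates 1 to 4 was 218, 113, 555 and 2164 CPM. In BAY replicates 1 to 4 it was 67.1, 95.1, 1247 and 224 CPM. VEH replicate 4 and BAY replicate 3 were thus high and BAY replicates 1 and 2 and VEH replicate 2 low, with a 32.3-fold range over the 8 mice and overlapping groups. As a share of all CPM, the members took 0.00671% in BAY replicate 1 and 0.216% in VEH replicate 4. The same mice led for each gene singly, as VEH replicate 4 was highest for 10 of 10 members and BAY replicate 3 second for 10 of 10. VEH replicate 3 came next for 9 of 10, and the lowest library was BAY replicate 1 for 6 members, VEH replicate 2 for 3 and VEH replicate 1 for 1.

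**Figure D1:**
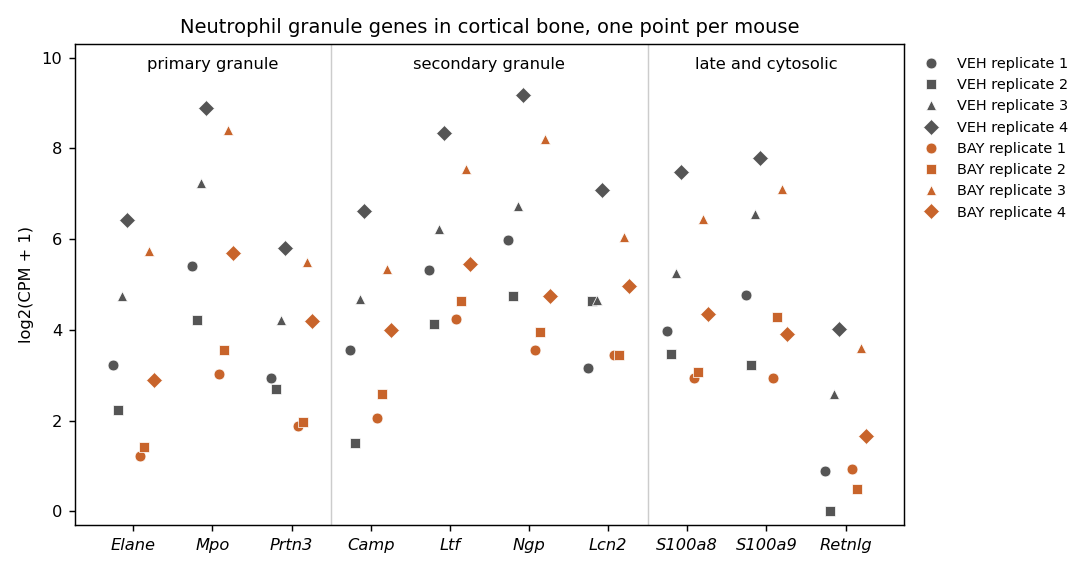
Level of each neutrophil granule gene in cortical bone, as log2(CPM + 1) on the vertical axis, with 1 point per mouse (gray VEH, orange BAY, marker shape by replicate). VEH replicate 4 is the highest point for 10 of 10 genes and BAY replicate 3 the second, and VEH and BAY points overlap for every gene.

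Primary granule genes encode the enzymes of the azurophil granule. Mpo, the myeloperoxidase that makes hypochlorous acid, was measured at 41.3, 17.5, 150.3 and 475 CPM in VEH and at 7.15, 10.8, 335 and 50.5 CPM in BAY replicates 1 to 4. VEH replicate 4 and BAY replicate 3 were far above the rest of their groups, which overlapped. Elane, the serine protease neutrophil elastase, was at 8.34, 3.68, 25.9 and 85.2 CPM in VEH and at 1.34, 1.65, 52.4 and 6.45 CPM in BAY. These values rested on 3 to 117 reads per library. Its neighbor Prtn3, which encodes proteinase 3, was at 6.62, 5.52, 17.7 and 54.6 CPM in VEH and at 2.68, 2.89, 44.3 and 17.2 CPM in BAY. For all 3 genes BAY replicates 1 and 2 held the lowest levels. Mpo averaged 171 ± 211 CPM in VEH and 101 ± 158 CPM in BAY (SD, n = 4), so that the SD was larger than the mean in both groups.

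Secondary granule genes encode the proteins of the specific granule. Ngp, a cystatin-like granule protein of mouse neutrophils, was at 62.6, 25.8, 105 and 580.2 CPM in VEH and at 10.7, 14.5, 293 and 25.8 CPM in BAY. Over the 8 libraries Ngp had 2213 reads, next to 2131 for Mpo, and by CPM Ngp led the members in VEH replicates 1, 2 and 4. Per kilobase of transcript Lcn2 led in VEH replicate 2, at 26.2 CPM per kb against 21.0 for Ngp. Ltf, the iron-binding lactoferrin, was at 39.1, 16.6, 73.3 and 323 CPM in VEH and at 17.9, 24.0, 184 and 43.0 CPM in BAY. Camp, the precursor of the antimicrobial peptide CRAMP, was at 10.8, 1.84, 24.8 and 96.8 CPM in VEH and at 3.13, 4.96, 39.2 and 15.1 CPM in BAY. Its lowest library, VEH replicate 2, held 2 reads. Lcn2, a lipocalin that binds bacterial siderophores and is also made by other cells such as osteoblasts, had the narrowest range of the 10, at 17.1-fold. It was at 7.91, 23.9, 24.1 and 135 CPM in VEH and at 9.83, 9.93, 65.2 and 30.1 CPM in BAY, and it alone was lowest in VEH replicate 1.

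S100a8 and S100a9 encode the subunits of calprotectin, the most abundant cytosolic protein of neutrophils. S100a9 was at 26.0, 8.29, 92.5 and 219 CPM in VEH and at 6.71, 18.6, 136 and 14.0 CPM in BAY. S100a8 ranged from 10.1 to 178 CPM in VEH and from 6.71 to 86.1 CPM in BAY, with the same highest library in each group. Retnlg, a resistin-like protein of mature neutrophils, was the lowest member, at 0.863, 0, 4.96 and 15.3 CPM in VEH and at 0.894, 0.414, 11.2 and 2.15 CPM in BAY. Only 68.0 reads were counted on it in all, and 3 of its 4 BAY libraries held 2 reads or fewer.

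Per kilobase of transcript, which allows levels of different genes to be compared, the mean level over the 8 bone libraries was highest for S100a9 (114 CPM per kb), Ngp (114) and S100a8 (91.4). Mpo (49.5 CPM per kb), Lcn2 (41.9), Ltf (32.6) and Camp (32.2) followed, then Elane (23.4), Prtn3 (18.5) and Retnlg (7.42). The ranges over mice overlapped for 9 of 9 pairs of neighbors in this order. Within mice, 2 of the 9 pairs kept their order in all 8 libraries, S100a8 above Mpo and Prtn3 above Retnlg. For the pairs Mpo and Lcn2, and Elane and Prtn3, the higher mean belonged to the gene that led in 4 of 8 mice.

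BAY and VEH mice were compared for each member to ask whether the treatment changed granule transcripts in bone. No member differed beyond the spread between mice. With limma on the deposited log2 values, 0 of 10 members passed an unadjusted P value of 0.05 with a fold change of at least 2, the rule of the study, and 0 of 10 had an unadjusted P value under 0.05. Of all genes in bone, 0.64% passed. Voom on recovered reads called 0 of 10 members and 3.68% of all genes. The log2 difference, BAY minus VEH, was -1.62 ± 1.29 for Elane, -1.60 ± 1.09 for Ngp and -1.33 ± 1.21 for Mpo (SE, limma, adjusted P = 0.887 for each). S100a9 and S100a8 had differences of -1.05 ± 1.08 and -0.89 ± 1.01. Prtn3, Camp, Ltf and Lcn2 lay closer to 0, between -0.64 and -0.42, with SE of 0.91 to 1.19. Retnlg had +2.60 ± 3.66, a value set by the library listed at 0, and was -0.20 on the log2(CPM + 1) scale. Exact permutation of the 8 mice gave two-sided P values of 0.314 (Elane) to 0.771 (Retnlg) for the single members, where 0.0286 is the smallest that 4 against 4 allow. The groups overlapped for 10 of 10 members, while 0.406% of all genes had groups without overlap.

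The estimate was lower in BAY for 9 of 10 members, with a median log2 difference of -0.77, whereas 19.1% of all genes were lower and the median of all genes was +0.84. Estimates were also mostly lower in several other lists, with 14 of 16 osteoblast and osteocyte genes lower (median -1.16). So were 10 of 12 erythroid genes (-0.84) and 8 of 10 monocyte and macrophage genes (-0.38). Lower too were 5 of 7 osteoclast genes (-0.46) and 4 of 6 megakaryocyte and platelet genes (-0.38). Higher, like most genes, were 10 of 12 B lineage genes (+1.13) and 5 of 6 T and NK cell genes (+2.26). The eosinophil, basophil and mast cell list had 3 of 4 genes higher (+0.59). In these lists 0 genes passed the rule or had an unadjusted P value under 0.05 by limma. By voom on the recovered reads 2 B lineage genes did, Ms4a1 at +2.45 and Rag1 at +2.07. So did Cd3g of the T and NK cell genes, at +2.62. These were named after their values were seen. The median of all genes became -0.09 without VEH replicate 1, and the member median was then -1.14. Without VEH replicate 4, 5 of 10 members were lower and the member median was -0.02. Without BAY replicate 3, 2 of 10 passed the rule, Ngp at -2.65 ± 0.94 and Mpo at -2.43 ± 1.08 (SE, limma, adjusted P = 0.859 for both), and 0.655% of all genes passed in that fit. Ngp also passed on the log2(CPM + 1) scale, at -1.55 ± 0.74 (SE, limma, adjusted P = 1.00), where 0.501% of all genes passed.

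Other cell types differed between the same libraries. The osteoblast and osteocyte sum was 8017, 1734, 33185 and 24979 CPM in VEH and 2225, 1939, 24939 and 2709 CPM in BAY replicates 1 to 4, so the 3 libraries with most granule transcripts also held most bone transcripts. The 7 osteoclast genes, led by Acp5 and Ctsk, ordered the mice almost as the members did, at 194, 166, 643 and 727 CPM in VEH and at 112, 115, 841 and 218 CPM in BAY. The fibre genes ran the other way, at 10438, 272, 91.9 and 50.2 CPM in VEH and at 39090, 42666, 1500.0 and 115 CPM in BAY. The estimate was higher in BAY for 12 of 12 fibre genes, with a median log2 difference of +3.34. Of these 2, Myl1 (+3.25 ± 1.22) and Eno3 (+3.36 ± 1.53, SE, limma, adjusted P = 0.887 for both), passed the rule, but neither did without BAY replicate 1, without BAY replicate 2 or without VEH replicate 3, nor with median centring, quantile normalization, no trend or background subtraction. In those fits the differences were +2.40 to +3.99 for Myl1 and +2.42 to +3.49 for Eno3. Eno3, unlike Myl1, also did not pass with the filter at 1 CPM, with voom, without VEH replicate 2 or without VEH replicate 4. BAY replicates 1 and 2, with the most fibre transcripts, were among the lowest 3 libraries for the summed members. The part of muscle RNA in the BAY and VEH values of the members was not tested.

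**Figure D2:**
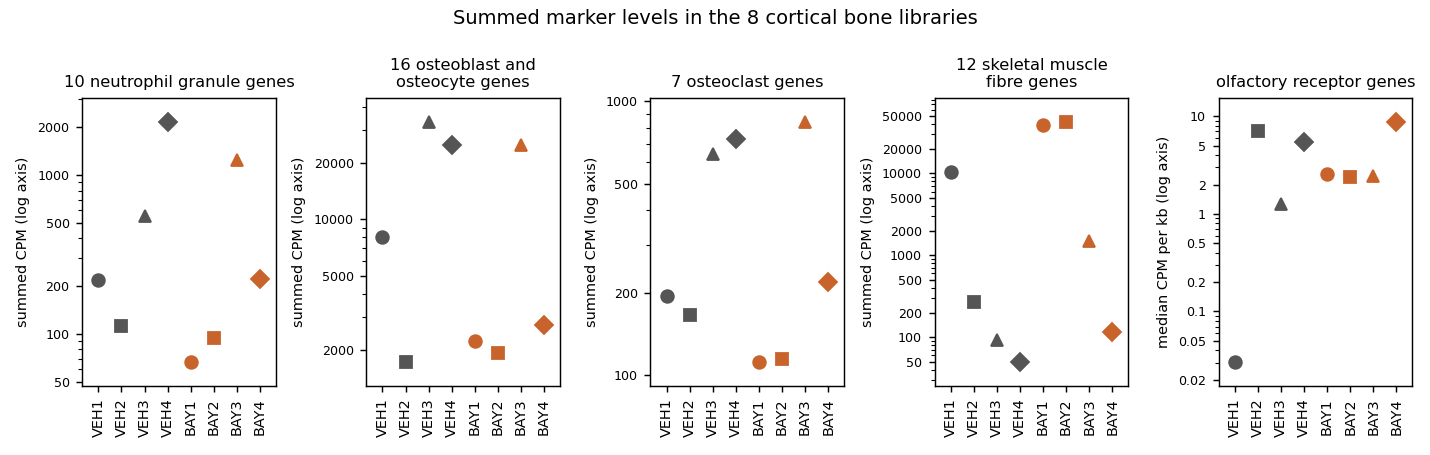
Summed CPM of 10 neutrophil granule, 16 osteoblast and osteocyte, 7 osteoclast and 12 skeletal muscle fibre genes, and the median CPM per kb of olfactory receptor genes, in each cortical bone library (log axes, gray VEH, orange BAY). VEH replicate 4 and BAY replicate 3 lie high for granule, bone and osteoclast genes, BAY replicates 1 and 2 high for fibre genes, and VEH replicate 1 far below the rest for olfactory receptors.

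Over the 8 bone mice the log2 summed members had a Pearson r of 0.96 with the osteoclast sum (Spearman rho 0.98), 0.90 with the osteoblast and osteocyte sum (0.81) and 0.87 with the monocyte and macrophage sum (0.79). The r was -0.63 with the fibre sum and -0.03 with 6 T and NK cell genes. Erythroid genes, which mark the other large lineage of marrow, had r = 0.47 (rho 0.24), and 12 B lineage genes 0.54 (0.74). These correlations are descriptions over mice whose libraries share depth and composition within each mouse. Divided by the erythroid sum, the members ranged from 0.240 CPM per erythroid CPM in BAY replicate 1 to 3.37 in BAY replicate 3, a 14.0-fold range. Granule and erythroid transcripts therefore did not keep a fixed ratio in these shafts. Hbb-bs and Hba-a2, globin genes of red cells, led the erythroid list in mean level, at 106 and 94.7 CPM.

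Scaling each library to its osteoblast and osteocyte sum, a step chosen after seeing the data, left a 5.18-fold range of the members. Per 1000 CPM of bone transcripts the members were at 27.2, 65.3, 16.7 and 86.6 CPM in VEH and at 30.1, 49.1, 50.02 and 82.5 CPM in BAY. On this scale VEH replicate 3 was the lowest and the groups averaged 49.0 ± 32.6 and 52.9 ± 21.8 (SD, n = 4). Refitted on this scale, 3 of 10 members were lower in BAY, 0 of 10 members and 2.65% of all genes passed the rule, and the median member was at +0.56 while the median of all genes was at +2.16.

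**Figure D3:**
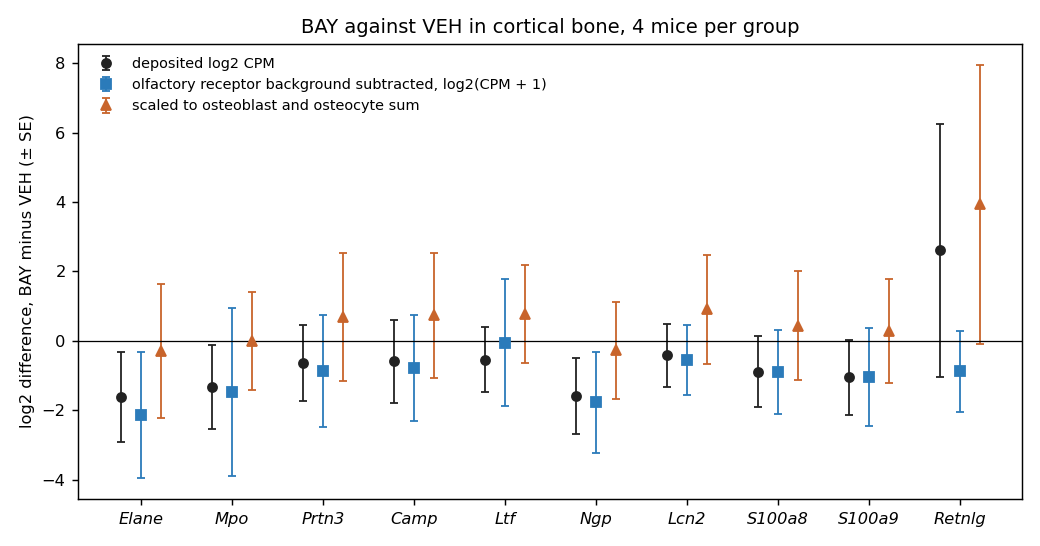
Log2 difference of each neutrophil granule gene in cortical bone, BAY minus VEH, with SE from limma (4 mice per group), for the deposited values, after subtraction of the olfactory receptor background with log2(CPM + 1), and after scaling to bone transcripts. Below 0 are 9 of 10 estimates from the deposited values, 10 of 10 after background subtraction with log2(CPM + 1) and 3 of 10 after scaling to bone transcripts.

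Olfactory receptor genes, which are transcribed mainly in the nose, also held reads in bone. These genes, of which 1353 were in the bone table with a transcript length, had a median of 0.0306, 7.03, 1.27 and 5.47 CPM per kb in VEH and of 2.59, 2.38, 2.42 and 8.76 CPM per kb in BAY. This background was chosen as a yardstick after seeing the data. All 10 members were above 3 times the median in VEH replicates 1, 3 and 4 and in BAY replicate 3. In the other libraries the number was 1 in VEH replicate 2 and 4, 5 and 2 in BAY replicates 1, 2 and 4. Elane was at 0.525 to 0.746 times the median in the 3 low BAY libraries and at 0.531 times in VEH replicate 2, so that its reads there were not above this background. S100a8, at 2.93 to 6.37 times the median in the same 4 libraries, and Lcn2, at 3.72 to 4.57 times, stayed above it. With this background subtracted, the summed members ranged 55.8-fold. The fit after subtraction also moved to log2(CPM + 1), and 10 of 10 differences were below 0 with a median of -0.89, while log2(CPM + 1) without subtraction had 10 of 10 below 0 with a median of -0.72. After subtraction 0 of 10 members and 1.03% of all genes were called.

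**Figure D4:**
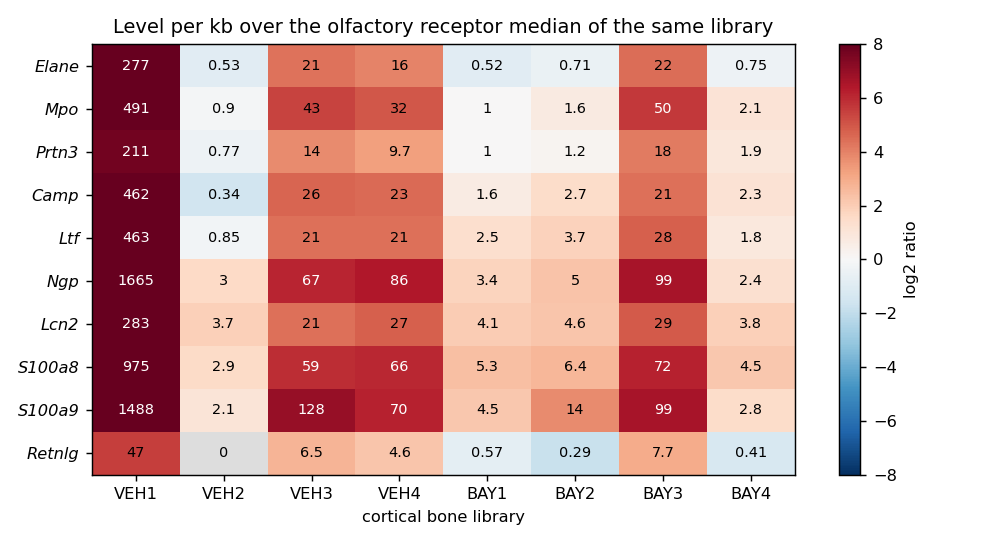
Level per kb of each neutrophil granule gene divided by the median of olfactory receptor genes in the same cortical bone library, printed as the ratio and colored by its log2 (gray, listed at 0). All 10 genes are above 3 times the median in VEH replicates 1, 3 and 4 and BAY replicate 3, and between 1 and 5 genes are in the other 4 libraries.

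The granule classes were then compared within each library, as shares of the reads on the 10 members, which do not depend on the library total. Secondary granule genes took the largest share of reads of the 3 classes in every library, from 40.9% in VEH replicate 3 to 62.0% in BAY replicate 1. That class holds 4 genes against 3 in each of the others. The shares were not corrected for transcript length, which was 2764 bases for Ltf and 492 bases for S100a8. They therefore do not rank the classes by transcript level. Primary granule genes took 25.8%, 23.6%, 34.9% and 28.4% in VEH and 16.7%, 16.1%, 34.7% and 33.2% in BAY. The share was lowest in BAY replicates 1 and 2, with 95% Wilson intervals for counting error of 11.6% to 23.4% and 11.9% to 21.4%, which overlapped that of VEH replicate 2 (16.9% to 31.8%). Those were 3 of the 4 libraries in which the primary granule genes were within 3 times the background, and the shares include background reads. BAY and VEH shares overlapped.

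**Figure D5:**
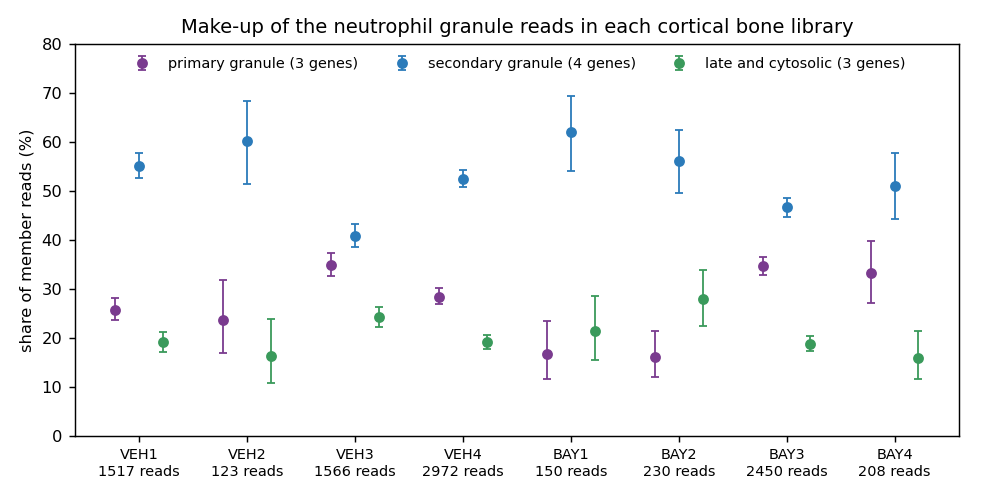
Share of the reads on the 10 neutrophil granule genes that fell on primary, secondary and late or cytosolic genes in each cortical bone library, with 95% Wilson intervals for counting error and the read total under each library. Primary granule genes are at 16.1% to 16.7% in BAY replicates 1 and 2 and at 23.6% to 34.9% elsewhere.

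Members followed one another closely over the mice. Among the 45 pairs, r of log2(CPM + 1) over the 8 mice was 0.74 to 0.99 with a median of 0.94, and it was above 0.9 for 36. Of a wider list of 28 neutrophil genes 27 were in the bone table, of which 0 were called by limma, 0 had an unadjusted P value under 0.05, 12 were higher and 15 lower in BAY. The highest library was VEH replicate 4 for 21 of the 27. The most abundant were Mmp9, a gelatinase also made by osteoclasts (mean 169 CPM, r = 0.96 with the mean of the members), Lyz2, the lysozyme of myeloid cells (124 CPM, r = 0.97), Cybb, the catalytic chain of the phagocyte oxidase (68.7 CPM, r = 0.88), and the integrin chain Itgb2 (51.5 CPM, r = 0.98). All 4 had lower estimates in BAY, by 0.34 to 1.04 on the log2 scale with SE of 0.89 to 1.10. The correlation was below 0 for 3 genes, named after their values were seen. These were Cebpe, a transcription factor of late granulocyte development (5.87 CPM, r = -0.10), Ly6g, the usual surface marker of mature mouse neutrophils (5.60 CPM, r = -0.06), and the formyl peptide receptor gene Fpr1 (7.38 CPM, r = -0.19). Over the 8 libraries Cebpe was at 0.791 to 11.4, Ly6g at 1.16 to 19.8 and Fpr1 at 0.804 to 28.4 times the olfactory receptor median, each highest in VEH replicate 1 and at most 3.38 times elsewhere.

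Among 16975 genes outside the members that averaged 10 CPM or more in bone, the pattern most like the mean of the members belonged to Lmnb1, a nuclear lamin (r = 0.998, rho 1.00 over 8 mice). Itgam, the integrin chain of the Mac-1 receptor on myeloid cells, came next (r = 0.991), followed by Gm4204, Actr3, Gm10076, Baz1a, Ppib, Ncf1, Rasa3 and Plac8 (r = 0.985 for the tenth). Ncf1 encodes a cytosolic subunit of the phagocyte oxidase. Without VEH replicate 1, r for Lmnb1 was 0.999 and for Itgam 0.992. In all 426 genes, or 2.51% of those compared, had r above 0.9, and the median gene had 0.06.

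In skeletal muscle, Lcn2 was the only listed member. It had 2, 0, 1 and 3 reads in VEH and 1, 2, 1 and 0 reads in BAY replicates 1 to 4, or 10 reads in all. As CPM these were 0.233, 0, 0.108 and 0.358 in VEH and 0.138, 0.326, 0.129 and 0 in BAY. Each library was at or below the floor of 3 reads, so no fold is given and a difference was not detectable at this depth. The log2 values gave an exact permutation P of 0.943 (two-sided, 4 against 4 mice), limma did not call Lcn2, and 2.43% of all muscle genes passed the rule. No gene in the muscle table had fewer than 5 reads over its 8 libraries, and the other 9 members were not in the table and were not analysed there. At their mean bone CPM the members would have given from 276 reads (Retnlg) to 8613 reads (Ngp) at the summed muscle depth. The tables were normalized separately, so the levels in bone and muscle are set side by side without a test.

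Of the wider neutrophil list 10 of 28 genes were in the muscle table, each at or below a mean of 3.95 CPM. Lyz2, which macrophages also make, was the highest at 3.95 CPM. By limma 1 of the 10, Hp, the hemoglobin-binding haptoglobin, passed the rule, at a log2 difference of -4.53 ± 1.92 (SE, limma, adjusted P = 0.475). Hp was at 7.77 CPM in VEH replicate 3 and at 0 to 0.931 CPM in the other 7 libraries, and the size of the difference depended on BAY replicate 3, listed at 0. It was -2.23 ± 1.03 without that library, -1.05 with log2(CPM + 1) and -2.64 with voom. Hp did not pass without VEH replicate 3 (-3.59 ± 2.23), without VEH replicate 1 (-4.61 ± 2.25), without BAY replicate 3 or without a trend (-4.53 ± 2.33). VEH replicate 3, whose data column is named as a replacement, was highest for 8 of the 10 listed neutrophil genes and also had the highest osteoblast and osteocyte sum in muscle, 238 CPM against 61.8 to 95.2 CPM in the other 7. The sum of 7 adipocyte genes, a cell type that also makes Hp, was likewise highest there, at 553 CPM against 284 to 433 CPM. Most of that sum was Plin4, at a mean of 302 CPM, with a difference of +0.36 ± 0.15 (SE, limma, adjusted P = 0.459). Of these 7 genes 5 were lower in BAY and 1, Plin1, passed the rule (-2.13 ± 0.92, SE, limma, adjusted P = 0.480). The part of that library's composition in the Hp result was not tested.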

How the data were processed

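RNA-seq of cortical bone and skeletal muscle from 4 VEH-treated and 4 BAY-treated mice was re-analysed, with groups taken from the sample labels. Per the labels and methods, the authors aligned trimmed reads with STAR (version 2.7.8a) to mm39, assigned them to Ensembl release 104 genes by Partek E/M, scaled the counts to CPM and deposited log2 of CPM plus an offset, which the smallest entries place at 0.0001 in bone and 0.0004 in muscle. Reads were recovered from the steps between low values: up to 50 reads, 86.3% to 88.4% of bone and 81.3% to 83.5% of muscle values were whole to within 0.02, which gave the depths. The scaling to a library total means that a member's CPM falls where other transcripts take more of the library.

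Genes were compared with limma (version 3.58.1, R 4.3.3), lmFit and eBayes with a trend, per tissue, without filter or covariates, on the deposited log2 values, with Benjamini-Hochberg adjustment over all genes of the table. A gene was called at unadjusted P < 0.05 with at least a 2-fold change. Single members were also compared by exact permutation over 70 assignments. Fits were tested on simulated data. Sums, shares with 95% Wilson intervals and correlations are descriptions. Other steps used Python 3.11.15 with numpy 2.4.6, pandas 2.3.3, scipy 1.17.1 and matplotlib 3.10.9. Transcript lengths came from the GENCODE M39 canonical transcripts and matched 98.9% of bone genes.

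The members, the marker lists and the tests were chosen with earlier results of these data known. The text names all members, the called and up to 4 most abundant genes of the lists it describes, and the 10 genes most like the members by r among those with a mean of at least 10 CPM. Alternatives were pseudocounts of 1 and 0.1 CPM, voom on recovered reads, array weights, no trend, quantile normalization, median centring, removal of genes that averaged under 1 CPM, a replicate block and leaving out single mice. Background subtraction, fitted as log2(CPM + 1), and scaling to bone transcripts were added after seeing the data.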

Additional observations from a re-analysis of the deposited data

Results flagged for a closer look

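In groups of 4 mice, a library was marked when its gap to the nearest other value, divided by the range of the group exceeded Dixon's 95% limit for 4 values, which chance passes in about 1 of 20 groups. On the CPM scale 11 of 24 groups of the members and their sum in bone, and of Lcn2 in muscle, were marked, and on the log2 scale 1 was. The members share libraries, so these are not independent. BAY replicate 3 stood above the other BAY libraries with a ratio of 0.9 for Elane, 0.868 for Mpo, 0.849 for Ltf, 0.947 for Ngp, 0.841 for S100a8, 0.908 for S100a9, 0.839 for Retnlg and 0.867 for the summed members. VEH replicate 4 stood above the other VEH libraries with a ratio of 0.858 for Ngp, 0.873 for Lcn2 and 0.841 for S100a8.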

How the results depend on the processing

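Depth and background limit the members: Retnlg rested on few reads, and in 4 of the bone libraries Elane, Mpo, Prtn3 and Camp lay below 3 times the olfactory receptor median, as Ltf did in 3 of them, and Lcn2 in muscle had at most 3 reads per library. Over 19 alternatives of the bone fit, 170 of 190 single member values kept their direction and their side of the threshold, 16 changed sign and 4 passed it, and the cause was not tested.

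The number of genes called in bone, 249 in all, was 82 with the filter at 1 CPM, 443 with median centring, 705 with quantile normalization, 408 without a trend, 901 with array weights, 1433 with voom on recovered reads, 397 after background subtraction with log2(CPM + 1) (195 with log2(CPM + 1) alone) and 1031 after scaling to bone transcripts. Leaving out 1 mouse gave 115 (without VEH replicate 3) to 1116 (without VEH replicate 2). Of the higher and lower calls, 212 and 37 became 250 and 455 with quantile normalization, 295 and 148 with median centring, 1431 and 2 with voom and 1027 and 4 after scaling to bone transcripts. In muscle, 510 called genes became 52 with log2(CPM + 1) and 193 with the filter, which removed Lcn2 and left no member value.

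The number of members called in bone was 0, but 1 with log2(CPM + 1) (Ngp) and 1 with array weights (Retnlg, +7.85), and 0 to 2 when 1 mouse was left out, with 2 without BAY replicate 3. With array weights Camp was at +0.34 and Ltf at +0.079. Scaled to bone transcripts, the differences were +0.73 for Camp, +0.90 for Lcn2, +0.78 for Ltf, +0.68 for Prtn3, +0.44 for S100a8 and +0.28 for S100a9. Retnlg was at -0.20 with log2(CPM + 1), -0.0051 with voom and -0.88 after background subtraction on the same log2(CPM + 1) scale. With each mouse left out, Camp ranged from -1.60 to +0.31, Lcn2 from -1.03 to +0.33, Ltf from -1.24 to +0.25, Prtn3 from -1.42 to +0.020 and Retnlg from -1.22 to +4.52, and the positive ends of the first 4 came without VEH replicate 4. For Lcn2 in muscle no fold was taken under any setting, since every library was at or below 3 reads. The 32.3-fold range of the summed members was 18.6 to 32.3 with 1 mouse left out, 18.6 without VEH replicate 4, 55.8 after background subtraction and 5.18 relative to bone transcripts.

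The replicate numbers belong to different mice, and same-numbered libraries did not deviate together (r of -0.11 to 0.19 in bone and -0.089 to 0.0075 in muscle). With the replicate block, 305 genes in bone and 489 in muscle were called, 0 of 10 members were called in bone, and Hp in muscle did not pass (-4.53 ± 2.15, SE, limma, adjusted P = 0.608).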
